A study of Mus musculus with 7 samples.

Results

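Immediate early genes are the first genes that a cell transcribes after a stimulus, and 10 of them were followed here: Fos, Fosb, Jun, Junb, Jund, Egr1, Atf3, Ier2, Ier3 and Nr4a1. They were taken by name from the 31253 genes counted in single-cell libraries of the mouse aorta, and their transcripts were summed per library and cell type. Every mouse had eaten high-salt food for 3 weeks. The 3 control libraries came from mice of the genotype Slc38a2flox/flox, in which the amino acid transporter gene Slc38a2 carries recombination sites, and the 4 knockout libraries from Slc38a2deltaEC mice. No library from mice on a normal diet was analysed here. The meaning of deltaEC as a deletion in endothelial cells is taken from the usual notation, and the Cre driver, the age and sex of the mice and any pooling of animals are not given in these sources. Whether each of the 7 libraries is a different animal is not stated, so the p-values speak only of the spread from library to library. The minced tissue was digested for 35 min at 37 °C in a mixture of proteases, DNase and hyaluronidase, and cells were captured on the BD Rhapsody system, which counts each transcript once by a unique molecular identifier (UMI).

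The members act in a short cascade. Kinase signals reach factors that already sit on the DNA, among them serum response factor and the cAMP response element binding protein, and these switch the genes on within minutes without new protein synthesis. Fos and Jun proteins pair to form the transcription factor AP-1, Egr1 is a zinc finger factor, Nr4a1 is an orphan nuclear receptor, and the short-lived messengers are soon shut off again by feedback inhibitors. Warm enzymatic dissociation of tissue is a known stimulus of these genes, as are stretch and growth factors in the vessel wall, so a dissociated cell can carry messengers made in the animal and messengers made in the tube. No undigested sample was analysed here, and these sources cannot be told apart.

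The promoters of 5 members are shown because they share TGACG, the core of the site that the cAMP response element binding protein reads. RefSeq promoters (build GRCm38.p6, 250 bases before to 50 after the start site, read on the gene's strand) were read for 8 of the 10 members. Egr1 and Ier2 were not among them, so no count below speaks of these genes. The window of Jund, 1 of these 8, runs from 70697489 to 70697788 on the plus strand of chromosome 8 and ends before the gene's GENCODE start at 70698949, so it does not reach the annotated gene. Capitals mark TGACG or its reverse complement CGTCA. Windows are chr12:85473640-85473939 on the plus strand for Fos, chr7:19309996-19310295 on the minus strand for Fosb, chr8:84978699-84978998 on the minus strand for Junb, chr1:191183284-191183583 on the minus strand for Atf3 and chr15:101266596-101266895 on the plus strand for Nr4a1.
Fos: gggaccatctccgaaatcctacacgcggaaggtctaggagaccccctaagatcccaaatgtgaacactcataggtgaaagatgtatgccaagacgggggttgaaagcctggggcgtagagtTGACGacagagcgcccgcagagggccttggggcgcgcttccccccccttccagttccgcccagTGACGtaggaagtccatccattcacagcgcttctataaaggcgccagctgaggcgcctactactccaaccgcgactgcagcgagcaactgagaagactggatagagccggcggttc
Fosb: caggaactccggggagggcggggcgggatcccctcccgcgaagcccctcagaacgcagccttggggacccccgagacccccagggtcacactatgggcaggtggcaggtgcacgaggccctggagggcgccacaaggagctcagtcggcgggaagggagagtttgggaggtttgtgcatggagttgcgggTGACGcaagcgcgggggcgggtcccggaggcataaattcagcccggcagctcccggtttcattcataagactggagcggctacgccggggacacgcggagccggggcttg
Junb: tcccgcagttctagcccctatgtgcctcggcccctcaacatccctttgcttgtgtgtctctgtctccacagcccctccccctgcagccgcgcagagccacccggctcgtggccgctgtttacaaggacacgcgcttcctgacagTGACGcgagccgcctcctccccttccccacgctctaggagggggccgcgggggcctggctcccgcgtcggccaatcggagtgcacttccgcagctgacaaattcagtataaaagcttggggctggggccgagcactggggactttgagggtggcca
Atf3: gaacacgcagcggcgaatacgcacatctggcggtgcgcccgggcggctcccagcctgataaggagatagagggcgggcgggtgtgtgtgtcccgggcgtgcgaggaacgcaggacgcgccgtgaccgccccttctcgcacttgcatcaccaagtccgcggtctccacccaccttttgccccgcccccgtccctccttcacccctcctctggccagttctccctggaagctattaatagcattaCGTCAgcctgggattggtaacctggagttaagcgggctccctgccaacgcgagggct
Nr4a1: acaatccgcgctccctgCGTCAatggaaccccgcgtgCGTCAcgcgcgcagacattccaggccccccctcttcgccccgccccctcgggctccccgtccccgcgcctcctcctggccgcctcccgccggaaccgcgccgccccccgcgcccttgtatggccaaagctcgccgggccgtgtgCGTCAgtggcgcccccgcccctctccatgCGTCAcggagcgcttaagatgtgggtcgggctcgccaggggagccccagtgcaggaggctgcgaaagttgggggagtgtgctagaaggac
TGACG was found in 5 of the 8 promoters, searched on both strands, against 20.8% of all 32851 promoters in the table. Counted from the start site as 0, with bases before it negative, it began at -129 and -66 in Fos, -60 in Fosb, -106 in Junb and -7 in Atf3, and 4 copies stood in Nr4a1 at -233, -213, -69 and -40. The full palindrome TGACGTCA was in 0 of the 8 and in 1.79% of all promoters. TGANTCA, the AP-1 site, was in 0 of 8 and in 7.81% of all, and the CArG box, the serum response factor site, was in 0 of 8 and in 1.63% of all. GCGNGGGCG, the EGR site, stood in Fosb and Nr4a1 and in 5.55% of all, and GGGCGG, the GC box, in 6 of 8 and in 35.7% of all. TATAAA was read in Fos at -33 and in Junb at 0, on the start site itself, and in 13.6% of all promoters. The RefSeq start of Junb lies upstream of the GENCODE start, 84978718 on the minus strand. These matches describe letters in a window and do not locate a bound site. Sites outside the window were not read, so a count of 0 does not show that a gene lacks the site. For Atf3 and Nr4a1 the RefSeq start site lies inside the longer span that GENCODE gives the gene, so another start may serve in these cells.

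The libraries held 6167 to 13792 barcodes and 22646246 to 73102988 UMIs each. After removal of poor barcodes and called doublets, 67474 of 76359 barcodes were analysed (library medians of 3083 to 5463 UMIs), and 91.8% of them were placed in a class by marker genes that include none of the 10 members. Fibroblasts were the largest class (36414 barcodes), followed by smooth muscle cells (18812), macrophages (4006) and endothelial cells (1348). Pecam1, an endothelial adhesion molecule, stood at 4748 CPM (UMI counts of a gene scaled to the same total in every sum) in endothelial cells and at 14.3 to 50.3 CPM in the other 3 large classes. Pecam1 is a marker that the gate used, so these levels describe the gate and do not test the class names. The labels name goblet cells, but 0 of 76359 barcodes carried 3 of the 7 goblet markers, which allows a share of up to 0.00393% of barcodes. Barcode sequences shared between libraries numbered 2826 of 73474. Slc38a2 in endothelial cells lay at 274 to 381 CPM in the flox controls and at 179 to 301 CPM in the knockouts, a log2 difference of -0.41 (SE 0.21, edgeR adjusted p = 0.79). No source used here gives the deleted exons, and transcript tags outside them would not check the label, so libraries are called knockout by their label.

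Immediate early transcripts filled a large share of the RNA in fibroblasts, mast cells, Schwann cells and endothelial cells and a small one in lymphocytes. The 10 members made up 1.98% of all UMIs in fibroblasts, 1.52% in endothelial cells, 1.00% in macrophages and 0.874% in smooth muscle cells. In the smaller classes the share was 2.31% in 74 Schwann cells, 2.01% in 243 mast cells, 0.647% in 217 neutrophils, 0.530% in 140 B cells, 0.483% in 243 T cells, 0.410% in 134 monocytes and 0.356% in 34 NK cells. Erythroid cells, which have little transcription of their own, gave 0.150%. Free RNA was not measured, since no barcode held fewer than 500 UMIs. Globin genes led the erythroid sum, so its share need not be the level of free RNA in other classes. Every library of the 4 large classes lay above the erythroid libraries with at least 20 barcodes, which ranged from 0.125% to 0.246%. Among the large classes the lowest library was knockout 1 in endothelial cells, at 0.545%.

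**Figure D1:**
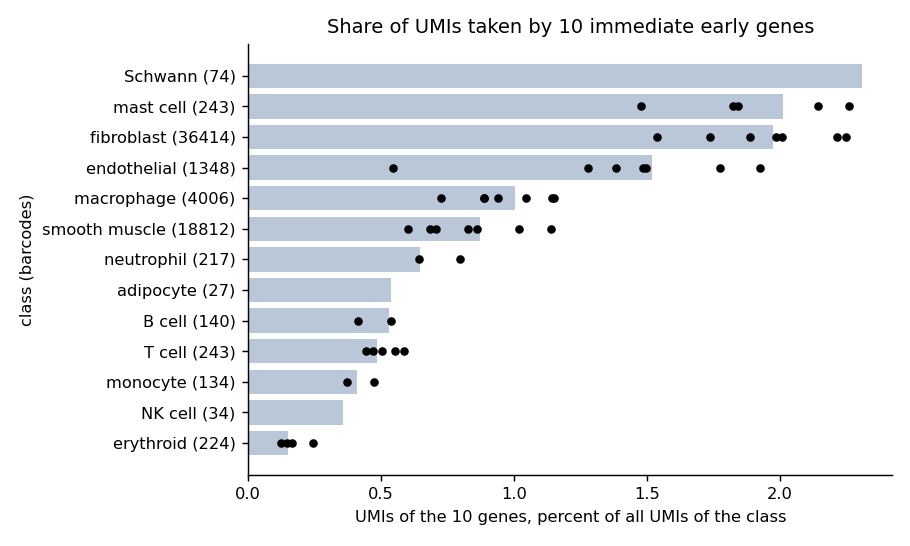
UMIs of the 10 immediate early genes as a percent of all UMIs of a class, with the number of barcodes in parentheses. Bars give all libraries together and points give libraries with at least 20 barcodes of the class; fibroblasts stand at 1.98% and erythroid cells at 0.150%.

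Counts per barcode were compared at equal depth. With every barcode thinned to 500 UMIs, 43.2% of fibroblasts carried at least 5 of the 10 genes, against 32.2% of endothelial cells, 21.1% of macrophages, 14.02% of smooth muscle cells and 0.446% of erythroid cells. None of the 10 was seen in 6.03% of fibroblasts, 10.7% of endothelial cells, 7.36% of macrophages, 17.5% of smooth muscle cells and 50.4% of erythroid cells. Fos alone was seen in 68.0% of fibroblasts, 67.1% of endothelial cells, 55.0% of smooth muscle cells and 34.5% of macrophages after thinning, and in 12.5% of erythroid cells. Before thinning these shares were 89.2%, 83.4%, 85.0%, 79.3% and 43.8%, at median depths of 5512, 2873, 4403, 4554 and 2971 UMIs. The Jun level of mast cells was 3581 to 6276 CPM, not TMM-scaled, over 5 libraries, above the 544 to 1509 CPM of endothelial cells, 779 to 1483 CPM of fibroblasts and 468 to 898 CPM of smooth muscle cells over 7 libraries. Atf3 in those mast cells was 138 to 270 CPM, against 267 to 548 CPM in smooth muscle cells.

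Pairs of members were read in the same barcodes. Over the 45 pairs, the median ratio of the observed share to the product of the separate shares was 1.65 in smooth muscle cells, 1.27 in endothelial cells, 1.18 in fibroblasts and 1.15 in macrophages, at 500 UMIs per barcode. The ratio ran from 1.10 for Fos and Jund to 2.17 for Junb and Atf3 in smooth muscle cells, from 1.04 to 1.505 in endothelial cells, from 0.997 for Fos and Jund to 1.36 in fibroblasts, and from 0.838 for Jund and Ier2 to 2.01 in macrophages. It cannot exceed the inverse of the larger of the separate shares, which holds it low where members are read in many barcodes, so the classes are not ranked by it. Barcodes of several libraries are pooled in these ratios.

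For the comparisons between cell types, levels are given as CPM scaled by the trimmed mean of M values (TMM), which sets the bulk of genes equal between sums. The classes differ in composition, and dividing by totals alone moved the median of all genes by 0.33 (log2) for endothelial minus smooth muscle cells, 0.20 for endothelial cells minus fibroblasts, 0.24 for endothelial cells minus macrophages and -0.12 for smooth muscle cells minus fibroblasts. For endothelial cells minus fibroblasts, the uncalled differences of Fos, Jun, Atf3 and Ier2 were -0.18, -0.13, -0.06 and -0.07 with TMM and turned to 0.04, 0.09, 0.16 and 0.15 with totals alone, a scaling chosen after seeing the data. Each contrast was fitted across 13898 genes with the library as a block (edgeR quasi-likelihood test, Benjamini-Hochberg over all genes), and calls are at an adjusted p under 0.05.

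Fibroblasts carried more immediate early transcripts than smooth muscle cells, the other large class of the wall. Of the 10 members 9 were called lower in smooth muscle cells and 0 higher, where 73.0% of all genes were called in that contrast (36.7% lower, 36.2% higher). The median of the members was -1.06 (log2) beside -0.02 for all genes. Against macrophages, smooth muscle cells had 5 members lower and 2 higher, Fos and Nr4a1, in a contrast that called 79.4% of all genes (36.0% lower, 43.4% higher). Fibroblasts against macrophages gave 5 higher and 3 lower, with 74.3% of all genes called (40.0% higher, 34.4% lower). Endothelial cells had 6 members higher and 1 lower than smooth muscle cells, with 59.0% of all genes called (28.1% higher, 30.9% lower). They had 5 lower and 0 higher than fibroblasts, with 55.0% called (29.0% lower, 26.0% higher), and 4 higher and 4 lower than macrophages, with 64.9% called (34.7% higher, 30.2% lower). In all, 44 of the 60 contrasts of members were called, and leaving out 1 library at a time gave 37 to 45. The single contrasts called 55.0% to 79.4% of all genes, so the pooled count is not read as a result about the members.

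**Figure D2:**
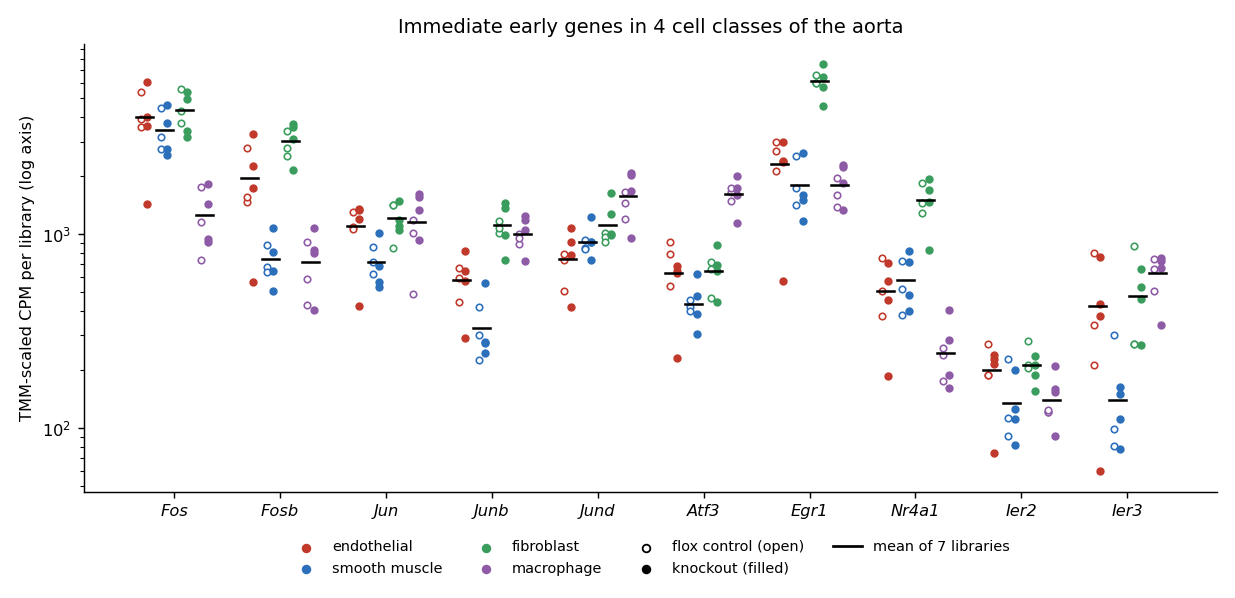
TMM-scaled CPM of each gene (log axis) in 4 classes, 1 point per library, open for the 3 flox controls and filled for the 4 knockouts, with the mean of 7 libraries as a bar. By mean, fibroblasts lie highest for Fos, Fosb, Jun, Junb, Egr1, Nr4a1 and Ier2, and macrophages for Jund, Atf3 and Ier3. For Fos, Jun, Junb and Ier2 the difference of fibroblasts from the next class was not called. Points of different classes can overlap, also for Fosb and Jund: in knockout 4, Fosb was 3278 CPM in endothelial cells and 3076 in fibroblasts. In knockout 1, Jund was 950 CPM in macrophages and 985 in fibroblasts. The lowest endothelial point of every gene is knockout 1.

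The Fos family supplies the AP-1 partner that is made anew on stimulation. Fos (ENSMUSG00000021250, chromosome 12 from 85473890 to 85477273, plus strand, GRCm38) ran over the 7 libraries from 3153 through a median of 4291 to 5599 CPM in fibroblasts. It ran from 1434 through 3936 to 6083 CPM in endothelial cells, from 2547 through 3163 to 4629 CPM in smooth muscle cells and from 732 through 1149 to 1808 CPM in macrophages. Macrophages lay below every smooth muscle and fibroblast library, and below all endothelial libraries but knockout 1. The 3 other classes were higher than macrophages by log2 1.49 to 1.82 (SE 0.20 to 0.21, edgeR adjusted p = 2.9e-07 or below), while no difference among the 3 other classes was called (adjusted p = 0.14 to 0.54). Dividing by totals alone, Fos was called between smooth muscle cells and fibroblasts (-0.45, edgeR adjusted p = 0.041) and between endothelial and smooth muscle cells (0.50, adjusted p = 0.030). The first of these was also called without flox control 3 (-0.43, adjusted p = 0.048) or knockout 3 (-0.49, adjusted p = 0.043).

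Fosb (ENSMUSG00000003545, chromosome 7 from 19302696 to 19310051, minus strand) is the relative of Fos known for longer-lived protein forms. It ran from 2145 through 3076 to 3688 CPM in fibroblasts, from 566 through 1719 to 3278 CPM in endothelial cells, from 506 through 680 to 1076 CPM in smooth muscle cells and from 407 through 802 to 1079 CPM in macrophages. The lowest fibroblast library lay above the highest smooth muscle and macrophage libraries. The log2 difference of smooth muscle cells minus fibroblasts was -2.01 (SE 0.21, edgeR adjusted p = 3.1e-09). Endothelial cells lay between, at -0.73 (SE 0.20) from fibroblasts and 1.28 (SE 0.21) from smooth muscle cells. No difference was called between smooth muscle cells and macrophages (0.09, SE 0.20, adjusted p = 0.68).

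The Jun family gives the other partner of AP-1, and Jund, unlike the rest of the list, is known for steady expression in resting cells. Jun (ENSMUSG00000052684, chromosome 4 from 95049034 to 95052222, minus strand) ran from 535 through 684 to 1016 CPM in smooth muscle cells and had means of 1105 to 1213 CPM in the 3 other classes. The log2 difference was -0.75 (SE 0.23) for smooth muscle cells minus fibroblasts and 0.62 (SE 0.23) for endothelial minus smooth muscle cells, with edgeR adjusted p = 0.0049 and 0.023, and the latter call was lost without flox control 2 (adjusted p = 0.053), knockout 2 (0.086) or knockout 4 (0.14). The difference of smooth muscle cells from macrophages, -0.68 (SE 0.23), was called (edgeR adjusted p = 0.0090) and was lost without knockout 2 (adjusted p = 0.059). No difference among fibroblasts, endothelial cells and macrophages was called.

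Junb (ENSMUSG00000052837, chromosome 8 from 84974484 to 84978718, minus strand) ran from 734 through 1077 to 1443 CPM in fibroblasts, from 726 through 1001 to 1232 CPM in macrophages, from 292 through 590 to 821 CPM in endothelial cells and from 223 through 278 to 559 CPM in smooth muscle cells. All 7 smooth muscle libraries lay below all fibroblast and macrophage libraries. The log2 difference between smooth muscle cells and fibroblasts was -1.77 (SE 0.14, edgeR adjusted p = 3.3e-11). No difference was called between fibroblasts and macrophages (0.12, SE 0.14, adjusted p = 0.44). Jund (ENSMUSG00000071076, chromosome 8 from 70698949 to 70700616, plus strand) had another order. Its means were 1569 ± 407 CPM (SD, n = 7) in macrophages, 1110 ± 253 in fibroblasts, 912 ± 150 in smooth muscle cells and 744 ± 222 in endothelial cells, and the log2 difference of endothelial cells minus macrophages was -1.09 (SE 0.12, edgeR adjusted p = 1.8e-08). The lower Jund level in endothelial than in smooth muscle cells (-0.33, SE 0.12, edgeR adjusted p = 0.019) had the other sign and was not called when totals alone were used (0.02, adjusted p = 0.92). It was also lost without flox control 2 (adjusted p = 0.11) or knockout 1 (0.088). The call of Jund between smooth muscle cells and fibroblasts (-0.26, SE 0.12, edgeR adjusted p = 0.0495) was lost in 8 of the alternatives. Genes on the opposite strand overlap these members: Prdx2 overlaps Junb with 37811 UMIs against 294868 of Junb, Junos overlaps Jun with 2759 against 374975, and Gm11175 overlaps Jund with 7 against 365219. Whether the authors counted by strand is not given in the sources used here, so reads of overlapping genes may be shared.

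Atf3 (ENSMUSG00000026628, chromosome 1 from 191170296 to 191218039, minus strand), a stress-induced partner of the AP-1 proteins that often represses its targets, was highest in macrophages. It ran from 1145 through 1642 to 1991 CPM in macrophages, above every library of fibroblasts (446 through 657 to 874 CPM), endothelial cells (228 through 644 to 911 CPM) and smooth muscle cells (306 through 420 to 621 CPM). Fibroblasts minus macrophages gave a log2 difference of -1.33, endothelial cells minus macrophages -1.39 and smooth muscle cells minus macrophages -1.86 (SE 0.17 each), all with edgeR adjusted p of 8.6e-08 or below. The difference between endothelial and smooth muscle cells was 0.48 (SE 0.17, adjusted p = 0.017), a call lost in 6 of the alternatives, among them the removal of flox control 1 (adjusted p = 0.058), flox control 3 (0.074), knockout 2 (0.061) or knockout 4 (0.087).

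Egr1 (ENSMUSG00000038418), a target of serum response factor and its ERK-driven cofactors, was highest in fibroblasts. Fibroblast libraries ran from 4554 through 6044 to 7502 CPM, and the highest value in any other class was 2997 CPM in endothelial cells of knockout 4. Smooth muscle cells ran from 1171 through 1581 to 2614 CPM and macrophages from 1331 through 1831 to 2268 CPM. Against fibroblasts the log2 difference was -1.47 in endothelial cells and -1.78 in smooth muscle cells, and fibroblasts stood 1.75 above macrophages (SE 0.23 each), with edgeR adjusted p of 4.7e-06 or below. No difference among the other 3 classes was called. Without knockout 1, which had the lowest endothelial level (573 CPM), Egr1 was called higher in endothelial cells than in smooth muscle cells (0.51, edgeR adjusted p = 0.021) and than in macrophages (0.52, adjusted p = 0.016). Both were called with totals alone as well (0.66 and 0.53, adjusted p = 0.012 and 0.036).

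Nr4a1 (ENSMUSG00000023034, chromosome 15 from 101254269 to 101274795, plus strand) showed the largest difference of any member in these 6 contrasts. It ran from 824 through 1458 to 1916 CPM in fibroblasts, from 382 through 523 to 816 CPM in smooth muscle cells, from 186 through 507 to 748 CPM in endothelial cells and from 161 through 237 to 408 CPM in macrophages. Each fibroblast library lay above every library of the 3 other classes. Fibroblasts were higher than macrophages by log2 2.59 (SE 0.18, edgeR adjusted p = 7.7e-13), and no difference was called between endothelial and smooth muscle cells (-0.23, SE 0.17, adjusted p = 0.25, with totals alone 0.11). In B cells the level without TMM was 928 and 1603 CPM in the 2 libraries with enough barcodes, against 866 to 1815 CPM in fibroblasts. This was not particular to B cells: mast cells had 1088 to 2234 CPM, neutrophils 921 and 1125 CPM and T cells 604 to 1174 CPM. Monocytes had 526 and 775 CPM. Antigen receptor signals are a known inducer of Nr4a1 in B cells, and their part here was not tested.

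Ier2 and Ier3 encode small nuclear and cell-survival proteins of less settled function. Ier2 (ENSMUSG00000053560, chromosome 8 from 84661331 to 84662852, minus strand) had means of 212 ± 38.7 CPM (SD, n = 7) in fibroblasts, 200 ± 62.5 in endothelial cells, 140 ± 37.9 in macrophages and 135 ± 55.5 in smooth muscle cells. It was called lower in smooth muscle cells than in fibroblasts (-0.68, SE 0.19, edgeR adjusted p = 0.0025). Its call between endothelial cells and macrophages (0.49, SE 0.21, adjusted p = 0.041) was lost in 10 of the alternatives, with each of 6 libraries left out among them (adjusted p = 0.071 to 0.12). The call of Ier2 between endothelial and smooth muscle cells (0.60, SE 0.20, adjusted p = 0.013) was lost without flox control 2 (0.053), knockout 2 (0.088) or knockout 4 (0.069). Ier3 (ENSMUSG00000003541, chromosome 17 from 35821684 to 35822923, plus strand) ran from 77.8 through 111 to 301 CPM in smooth muscle cells and from 338 through 667 to 749 CPM in macrophages, with no overlap, a log2 difference of -2.26 (SE 0.23, edgeR adjusted p = 1.3e-09). Fibroblast libraries spread from 267 to 869 CPM and endothelial libraries from 59.7 to 795 CPM. The call of Ier3 between fibroblasts and macrophages (-0.53, SE 0.22, adjusted p = 0.030) was lost without flox control 1 (adjusted p = 0.11), flox control 2 (0.10), knockout 2 (0.071) or knockout 3 (0.052).

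Related genes of the same response were read from lists chosen for this tissue and treatment. Of 11 other AP-1, EGR and NR4A genes, 10 were called lower in smooth muscle cells than in fibroblasts and 0 higher, with a median of -1.71 beside -0.02 for all genes. Nr4a3, an orphan receptor close to Nr4a1, had a log2 difference of -3.30 (SE 0.19), Fosl1, an AP-1 partner, one of -3.26 (SE 0.20), and Maff, a small Maf protein, one of -2.44 (SE 0.15). Of 14 feedback inhibitors, which end the response, 13 were called lower in smooth muscle cells than in macrophages, with a median of -1.18 beside 0.14. Tnfaip3, a brake on NF-kappaB, had a log2 difference of -4.09 there (SE 0.14) and Zfp36, which drives decay of short-lived messengers, one of -2.55 (SE 0.19). The same list had 7 called lower and 2 higher in smooth muscle cells than in fibroblasts. Fibroblasts had 9 of it lower and 3 higher than macrophages. Of 12 heat shock genes, 10 were called lower in smooth muscle cells than in macrophages and 1 higher, Hspb1, by log2 2.98 (SE 0.20). Upstream factors and kinases split: of 12, 5 were called lower and 3 higher in smooth muscle cells than in fibroblasts, with Elk4, a serum response factor partner, at -0.93 (SE 0.08) and Mapk8, a stress kinase, at -0.88 (SE 0.07). Of 14 secondary and growth genes, 8 were called lower and 1 higher in smooth muscle cells than in fibroblasts, with Cebpd at -2.74 (SE 0.17) and Myc at -2.35 (SE 0.17), both transcription factors. Against macrophages, 6 of these genes were called lower and 3 higher in smooth muscle cells, with a median of 0.04 beside 0.14. These lists were chosen with results of these data known, and the shares of all genes called in the same contrasts are given above.

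No member was called between the genotypes. In each of the 4 classes 0 of 10 were called at an adjusted p under 0.05, where 0.0% of all genes were called by the same edgeR test, with 8141 genes tested in endothelial cells, 12755 in smooth muscle cells, 15394 in fibroblasts and 10392 in macrophages. At an unadjusted p under 0.05 the test gave 501, 640, 710 and 793 genes and 0 members in each class, and DESeq2 called 0, 8, 6 and 4 genes and 0 members. The groups overlapped for all 40 combinations of member and class. Member medians were -0.14, 0.01, -0.0012 and 0.21 (log2, knockout minus flox control) in the order above, beside medians from -0.0090 to 0.0019 over all genes. Of 12 heat shock genes, 0 were called in each class, and the medians were -0.44, -0.13, -0.12 and 0.21 in the same order. A p that misses the threshold does not show that the genotypes are alike, and the standard errors of the members, 0.16 to 0.60, set what could be seen.

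In endothelial cells Fos stood at 3936, 3545 and 5421 CPM in flox controls 1, 2 and 3 and at 1434, 3586, 4022 and 6083 CPM in knockouts 1, 2, 3 and 4. Knockout 4 was the highest and knockout 1 the lowest of the 7. The log2 difference was -0.22 (SE 0.38, edgeR adjusted p = 0.95). Atf3 gave the largest endothelial difference, -0.46 (SE 0.32, edgeR adjusted p = 0.80), from 788, 542 and 911 CPM in the flox controls and 228, 631, 644 and 684 CPM in the knockouts. The largest difference of any member in the 4 classes was Jun in macrophages. There the flox controls stood at 1010, 1175 and 490 CPM and the knockouts at 1605, 1557, 928 and 1326 CPM, a log2 difference of 0.61 (SE 0.28, edgeR adjusted p = 0.63). Interaction tests of the genotype effect between classes called 0 members and 0.0% of 14431 genes in each of 6 contrasts (edgeR), with 0 members and 336 to 848 genes at an unadjusted p under 0.05.

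Some libraries lay apart from the others of their class. Endothelial cells of knockout 1 had the lowest level of all 10 members among the 7 libraries, Egr1 at 573 CPM against 2114 to 2997 CPM and Ier3 at 59.7 CPM against 210 to 795 CPM. The mean log2 level of the 10 genes there deviated by -1.43 from the class mean, while the other 6 libraries ranged from -0.20 to 0.54. This sum held 63 barcodes and 222310 UMIs, with a median of 6.90% mitochondrial UMIs, inside the range of 4.81% to 9.87% of the other libraries. After thinning, 39.7% of its endothelial barcodes carried none of the 10 genes, against 1.79% to 15.9% in the others. Markers of the other 3 large classes were all detected over the endothelial sums of the 7 libraries together, 10 of 10 in each list. In knockout 1 alone their summed levels were 378 CPM for smooth muscle, 657 for fibroblast and 40.5 for macrophage markers. The other knockouts had 405 to 631, 683 to 1377 and 27.1 to 214 CPM and the flox controls 640 to 1069, 820 to 1823 and 29.8 to 105 CPM. The part of these markers and of the small number of barcodes in the result was not tested.

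Knockout 1 also had the lowest level of 7 members in fibroblasts, 6 in macrophages and 0 in smooth muscle cells. Its mean deviation was -0.45 in fibroblasts, the lowest of the 7, and -0.33 in macrophages, where flox control 3 lay at -0.34. In smooth muscle cells the order was another one. Knockout 3 was highest for 8 members with a mean deviation of 0.56, and knockout 2 was lowest for 7 with -0.42. Junb there stood at 559 CPM in knockout 3 against 242 to 278 CPM in the other knockouts and 223 to 420 CPM in the flox controls. The order of libraries was not the same in all classes: flox control 3 lay at 0.54 in endothelial cells, 0.44 in smooth muscle cells, 0.04 in fibroblasts and -0.34 in macrophages.

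**Figure D3:**
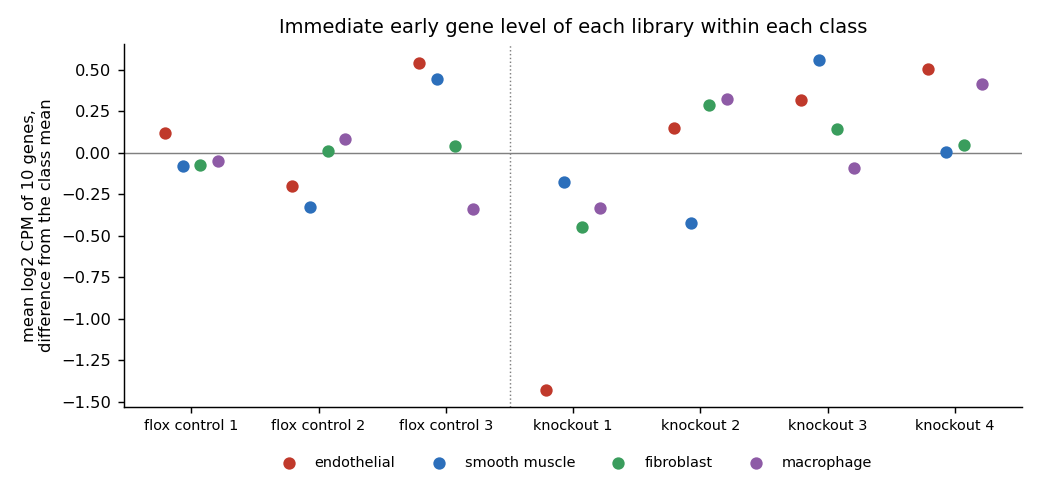
Mean log2 CPM of the 10 genes in each library minus the mean over the 7 libraries of that class, for 3 flox controls and 4 knockouts (dotted line between). The endothelial point of knockout 1 lies at -1.43, below all other points, which range from -0.45 to 0.56.

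Members were correlated between libraries. Over the 28 sums of 7 libraries and 4 classes, each taken as a deviation from its class mean, the correlation of a member with the mean of the other 9 ranged from 0.61 for Jund and 0.69 for Jun to 0.91 for Nr4a1 and 0.93 for Egr1 (Pearson, a description, since sums of 1 library share its tissue and depth). Among the 10 genes most like the list by the same measure, of 4603 ranked, were Ccnl1 (0.92), Zfp36 (0.90), Tra2b (0.89), Topors (0.88), Clk1 (0.87), Brd2 (0.86), Nfkbiz (0.86), Mcl1 (0.85) and Sf3b1 (0.84). Zfp36 and Nfkbiz are known immediate early genes, and Ccnl1, Tra2b, Clk1 and Sf3b1 encode proteins of RNA splicing.

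Nucleus-like barcodes, with 500 to 1500 UMIs of which at most 3% were mitochondrial, numbered 5325 among the analysed barcodes. They were compared with 5739 barcodes of the same range of UMIs and a mitochondrial share above 3%, within libraries, called range-matched here. Depth was not equal inside that range. Nucleus-like smooth muscle cells held 422293 UMIs in 593 barcodes against 1147848 in 1114, and nucleus-like fibroblasts 1154505 in 1507 against 2748368 in 2874, so nucleus-like barcodes were the shallower ones in both. Ungated barcodes made up 56.6% of the nucleus-like set (3016) and 16.9% of the range-matched set, and 72 of 217 neutrophils met the rule too, so the rule also takes in cells of low mitochondrial share. Nuclear RNA was higher in these sums: Malat1, a long noncoding RNA kept in the nucleus, was higher by log2 1.21 (SE 0.26) in smooth muscle cells and 0.46 (SE 0.11) in fibroblasts, with edgeR adjusted p = 2.6e-05 and 8.9e-04. Of the 4 nuclear RNAs listed, 3 were called higher in smooth muscle cells and 4 in fibroblasts. Mitochondrially encoded genes, which the rule used, had medians of -3.94 and -1.95.

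In smooth muscle cells 2 of 10 members, Fos and Jund, were called lower in nucleus-like barcodes and 0 higher, where 49.1% of all genes were called (29.5% lower, 19.6% higher). Over flox controls 1 and 2 and knockouts 1, 2 and 3, the 5 libraries with enough barcodes, TMM-scaled Fos was 2494, 2642, 2330, 2375 and 2886 CPM in nucleus-like sums and 4587, 4636, 2656, 4715 and 5284 CPM in range-matched sums. Fos was lower in all 5, with a log2 difference of -0.76 (SE 0.25, edgeR adjusted p = 0.0077). Jund was 557, 466, 457, 750 and 804 CPM against 1448, 1197, 993, 933 and 1288 CPM, lower in all 5 with a difference of -1.01 (SE 0.28, edgeR adjusted p = 0.0011). Both calls rested on the scaling. Dividing by totals alone shifted the median of all genes by 0.53, and neither was then called: Fos was -0.19 (edgeR adjusted p = 0.51), lower in 4 of 5 libraries, and Jund -0.46 (adjusted p = 0.15), lower in 4 of 5. On that scale Fosb was called higher (0.94, edgeR adjusted p = 0.0011), from 1199, 1600, 837, 2095 and 2109 CPM against 720, 746, 666, 530 and 1412 CPM, higher in 5 of 5, while with TMM it was 0.38 (SE 0.26, adjusted p = 0.21). Without the library as a block, Fosb was likewise called higher (0.69, edgeR adjusted p = 0.027) and Fos was not called (-0.47, adjusted p = 0.051). Without flox control 1, which supplied 216 of the nucleus-like barcodes, neither Fos (adjusted p = 0.16) nor Jund (0.092) was called, and Fos was not called without knockout 3 (0.13).

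Fibroblasts gave 0 of 10 called members between nucleus-like and range-matched barcodes over 7 libraries (edgeR), where 29.7% of all genes were called, 1 member had an unadjusted p under 0.05, and DESeq2 called 0. Differences ran from -0.22 for Jund (SE 0.12, edgeR adjusted p = 0.18) to 0.21 for Egr1 (SE 0.10, adjusted p = 0.11). Egr1 was higher in nucleus-like sums in 6 of 7 libraries, with means of 5406 ± 1091 against 4677 ± 856 CPM (SD, n = 7). It was called when totals alone were used (0.37, edgeR adjusted p = 0.0062) and without flox control 1 (0.33, adjusted p = 0.020). With nucleus-like barcodes held to a mitochondrial share of at most 1%, Egr1 turned to -0.92 (edgeR adjusted p = 0.0091) and Ier3 to -1.39 (adjusted p = 0.037), and both were called lower, as were Fos at -1.12 (0.0018) and Jund at -1.01 (0.023). That setting kept 4 libraries, flox controls 1 and 2 and knockouts 1 and 3, and called 1000 of all 5003 genes. Pooled over all libraries without TMM, Egr1 stood at 3223 CPM in the 273 such barcodes and at 4076 CPM in range-matched ones. The difference of the nucleus-like effect between smooth muscle cells and fibroblasts was called for 0 members and for 5.25% of genes. Its largest values were -0.60 for Jund (SE 0.30, edgeR adjusted p = 0.23) and -0.57 for Fos (SE 0.28, adjusted p = 0.23).

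**Figure D4:**
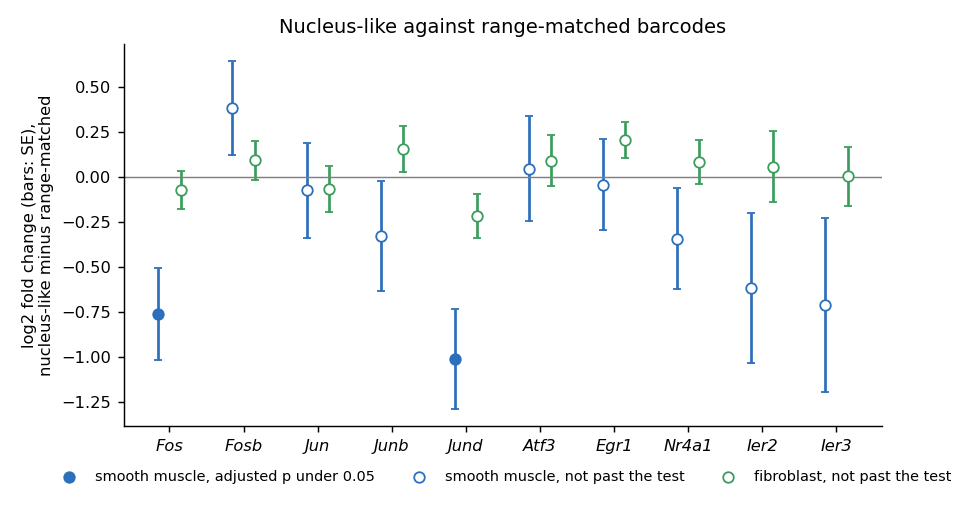
Log2 fold change of each gene in nucleus-like minus range-matched barcodes (bars: SE) with TMM scaling, in smooth muscle cells (5 libraries) and fibroblasts (7 libraries). Filled points passed the edgeR test with the library as a block, and only Fos at -0.76 and Jund at -1.01 in smooth muscle cells are filled; with totals alone these were -0.19 and -0.46 and not called.

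Other genes of these families were called there, with TMM scaling. In fibroblasts, Egr3 was higher in nucleus-like barcodes by log2 1.20 (SE 0.26), Nr4a2 by 0.60 (SE 0.15) and Nr4a3 by 0.48 (SE 0.16), with edgeR adjusted p = 3.4e-04, 0.0020 and 0.021. Of 8 tested AP-1, EGR and NR4A genes there, 3 were called higher and 0 lower, beside 15.9% higher and 13.9% lower among all genes. In smooth muscle cells Nr4a2 (1.33, SE 0.35) and Nr4a3 (1.12, SE 0.39) were called higher and Mafk (-1.10, SE 0.48) lower among 5 tested, with edgeR adjusted p = 7.4e-04, 0.012 and 0.045, beside 19.6% higher and 29.5% lower among all genes. With so few tested, these counts are not read as a result about the families. Heat shock genes had 6 of 12 called lower in smooth muscle cells, led by Hsp90ab1 (-1.65, SE 0.26), and 1 of 12 in fibroblasts. Ccn2, a secreted matrix protein gene, was called lower in both, at -1.33 (SE 0.27) and -0.82 (SE 0.13).

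The level of the members differed between ranges of depth and of mitochondrial share, and not in the same way in every class. In fibroblasts the members took 1.42% of UMIs in barcodes of 500 to 1500 UMIs and 2.13% in barcodes of 6000 to 12000, and the deeper bin was higher in 7 of 7 libraries. Above 12000 UMIs the share was 1.95%. Endothelial cells were higher in the deeper of these bins in 4 of 4 libraries, smooth muscle cells in 5 of 7 and macrophages in 4 of 7. Over the 5 bins from low to high depth, smooth muscle cells stood at 0.907%, 0.830%, 0.725%, 0.985% and 1.33%, and macrophages at 0.888%, 0.996%, 1.04%, 1.01% and 0.852%, so neither ran one way. Against barcodes of more than 1500 UMIs, all 10 members were lower in nucleus-like fibroblasts, with log2 differences from -0.79 (Ier3) to -0.57 (Egr1), where the comparison within 500 to 1500 UMIs called 0. The first of these comparisons called 4857 of all 13939 genes. In smooth muscle cells of more than 1500 UMIs, the members took 1.90% of the non-mitochondrial UMIs at 5% to 10% mitochondrial UMIs (1651 barcodes) and 0.915% at 10% to 25% (15413 barcodes). The first range was higher in 6 of 6 libraries with enough barcodes, at 1.39% to 2.88% against 0.645% to 1.22%. Beside this, Myh11, the smooth muscle myosin gene, stood at 4165 and 4541 CPM and Dcn, a fibroblast matrix gene, at 261 and 132 CPM in these ranges. In fibroblasts of more than 1500 UMIs, the range of 1% to 3% lay above that of 10% to 25% in 7 of 7 libraries. At 500 to 1500 UMIs fibroblasts stood at 1.03%, 1.61% and 1.83% of non-mitochondrial UMIs in the ranges of 0% to 1%, 1% to 3% and 3% to 5%, and the range of 1% to 3% was below that of 3% to 5% in 5 of 7 libraries. In macrophages the shares were 0.991% to 1.13% over the 4 mitochondrial ranges of barcodes above 1500 UMIs. The part of depth, mitochondrial share and fibroblast RNA in these differences was not tested.

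**Figure D5:**
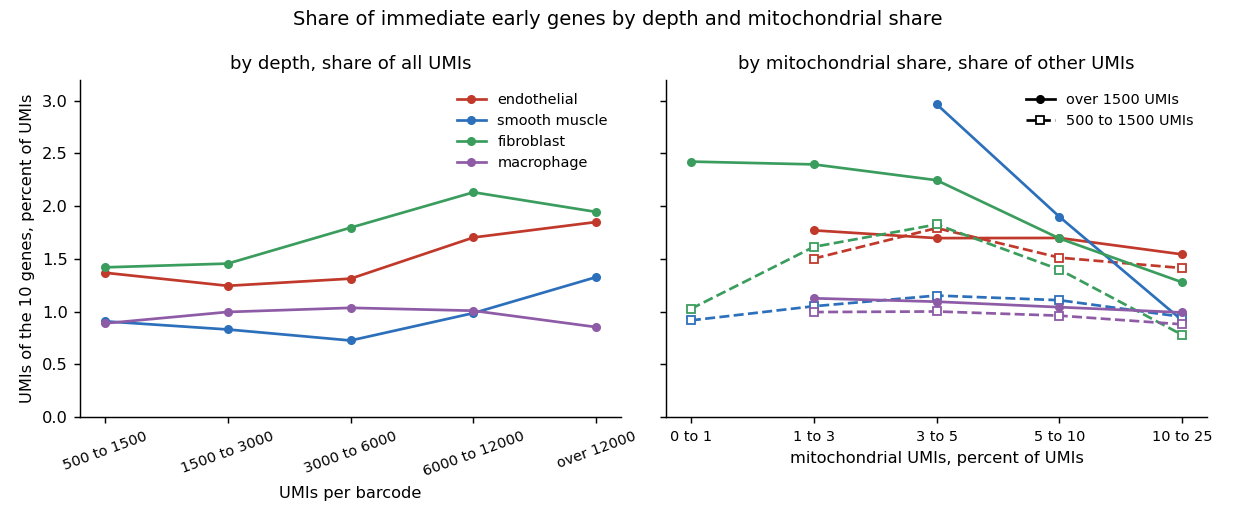
Left, UMIs of the 10 genes as a percent of all UMIs in bins of UMIs per barcode; right, as a percent of non-mitochondrial UMIs in bins of mitochondrial share, for barcodes above 1500 UMIs (solid) and of 500 to 1500 UMIs (dashed), all libraries together. Fibroblasts go from 1.42% to 2.13% and then 1.95% with depth, and smooth muscle cells above 1500 UMIs fall from 1.90% at 5% to 10% mitochondrial UMIs to 0.915% at 10% to 25%.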

How the data were processed

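Single-cell RNA was read in 7 libraries. The values deposited by the authors are UMI counts (whole numbers without normalization). The tools were CASAVA 1.8, STARsolo 2.7.10a and Seurat, and the build was mm10, per the submitters' processing notes. No source used here gives the annotation, strand setting or barcode selection. Groups come from the genotype label; flox control 2 carries a conflicting replicate number and is numbered by its name.

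Barcodes with under 200 genes or over 25% mitochondrial UMIs were removed, and Scrublet (scanpy 1.11.5, expected rate 0.06) removed 0.942% to 2.03% as doublets. A barcode was gated to a class with at least 3 of its markers and a lead of 0.2 in marker share over the next class, a scoring rule set after the data were seen. Counts were summed per library and class (at least 20 barcodes) and tested with edgeR 4.0.16 (TMM, filterByExpr, quasi-likelihood) in R 4.3.3. The fits were also run on simulated counts with a fixed dispersion and no library effect. Such counts do not check the test at the spread of these sums. DESeq2 1.42.0, other scalings, filters, gates and left-out libraries were alternatives. Smaller classes are unscaled CPM. GENCODE vM21 gave coordinates (99.8% of identifiers matched). Intervals of counting were not added, since sums over libraries carry their own spread.

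The members and lists were chosen with earlier results of these data known. Named are the 10 members, up to 4 genes of a list with the smallest p in a contrast, and the 10 genes most alike, of which 1 is not reported here; genes of other kinds named beside them are markers or overlapping genes.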

Additional observations from a re-analysis of the deposited data

Results flagged for a closer look

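In groups of 4 libraries, a value far from the other 3 was found in 4 of the 40 combinations of member and class among the knockouts; chance gives about 1 in 20 such groups. In endothelial cells, knockout 1 stood apart for Jun at 425 CPM against 1199 to 1344 CPM, for Atf3 at 228 CPM against 631 to 684 CPM and for Ier2 at 73.8 CPM against 212 to 239 CPM. These 3 values come from 1 sum of 63 barcodes and are not independent. In smooth muscle cells, knockout 3 stood apart for Junb at 559 CPM against 242 to 278 CPM. The flox controls are 3 libraries and were not examined in this way.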

How the results depend on the processing

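By genotype, 0 members were called in each of the 4 classes under every alternative tried, the replicate block included, and leaving out 1 library at a time gave 0 to 0. Same-numbered libraries did not deviate together throughout. Over the numbers 1, 2 and 3, r was 0.18, 0.03 and -0.05 in endothelial cells and 0.16, 0.16 and 0.03 in smooth muscle cells. It was 0.13, -0.0008 and 0.22 in fibroblasts and 0.01, -0.08 and 0.07 in macrophages. These values do not settle whether equal numbers mark a pair. The block called 2, 4, 7 and 1 of all genes in endothelial, smooth muscle, fibroblast and macrophage sums. The same 6 libraries without it called 0, 2, 5 and 1. Without a filter on low counts, 80 genes in endothelial cells and 119 in macrophages were called, none of them members.

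Between cell types 44 of 60 calls became 37 to 47 under the alternatives and 37 to 45 with 1 library left out. In the main fit the single contrasts called 55.0% to 79.4% of all genes. The sign turned for Jund between endothelial and smooth muscle cells (0.016 with totals only). In nucleus-like smooth muscle cells 2 calls became 1 with a stricter marker gate, 4 against barcodes over 1500 UMIs and 1 with totals only, and 0 to 2 with 1 library left out. Of all genes, the stricter gate called 535 of 1803, barcodes over 1500 UMIs 5378 of 12520 and totals only 1961 of 3553. The main fit called 1744 of 3553. In nucleus-like fibroblasts 0 calls became 1 with DESeq2 size factors, 1 with a stricter gate, 1 with doublets kept, 1 with totals only, 4 at a mitochondrial share of at most 1%, 10 against barcodes over 1500 UMIs, and 0 to 1 with 1 library left out. Of all genes, the main fit called 1806 of 6071, DESeq2 size factors 1847 of 6071 and the stricter gate 806 of 5090. Kept doublets called 1827 of 6256 and totals only 1916 of 6071. The limit of 1%, over 4 libraries, called 1000 of 5003 and barcodes over 1500 UMIs 4857 of 13939. In these fibroblasts the sign turned for Egr1 (-0.92) and Ier3 (-1.39) at a mitochondrial share of at most 1%, and against barcodes over 1500 UMIs for Fosb (-0.67), Junb (-0.74), Atf3 (-0.60), Egr1 (-0.57), Nr4a1 (-0.79), Ier2 (-0.69) and Ier3 (-0.79). The second comparison differs in depth by its construction; the cause of the other changes was not tested. Scaling by totals only, and the same 6 libraries without the block, were chosen after seeing the data. Small sums limit precision: nucleus-like smooth muscle sums held from 20 barcodes.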
